A study of Mus musculus with 24 samples.

Results

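The chemokine, interleukin and colony-stimulating factor genes were followed in cultured mouse lung epithelium given a hydrogen sulfide donor. Members were all genes whose array name was Ccl, Cxcl or Il followed by a number (with at most one letter from a to f after it), together with Csf1, Csf2, Csf3, Tnf, Lif and Cx3cl1. This gave 72 genes of the 34832 gene names and unnamed probes on the array: 19 CC chemokines, 13 CXC chemokines, 34 interleukins and the 6 genes added by name. They were carried by 89 probes, and for the 13 genes with several probes the one with the highest mean signal over the 24 arrays stood for the gene.

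The cells were primary murine alveolar type II cells, the surfactant-making cells of the lung alveolus, grown for 3 days at an air-liquid interface until they formed a monolayer. Total RNA was measured on 1-colour arrays in 6 groups of 4. In the first experiment, cells received NaHS, a donor that releases hydrogen sulfide fast, at 100 µM for 24 h, vehicle (DMEM medium) for 24 h, NaHS at 100 µM for 6 h, or vehicle for 6 h. In the second, all cells received GYY4137, a slow donor, at 100 µM for 24 h, either in hyperoxia (85% O2) or in normoxia (21% O2). No arrays without a donor were analysed here for the second experiment, so its contrast is one of oxygen in cells that all carried GYY4137. The labels do not say that replicates came from separate cultures or animals, so p-values measure the spread between these samples, which may be technical.

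Chemokines are small secreted proteins that draw leukocytes along a gradient through G protein-coupled receptors. Those of the CXC class with an ELR motif (Cxcl1, Cxcl2, Cxcl3, Cxcl5 and Cxcl15 in the mouse) attract neutrophils, and the CC class acts mainly on monocytes, T cells and eosinophils. Interleukins and colony-stimulating factors act on cytokine receptors to set the survival, growth and activation of immune cells. In the lung, type II cells are a known source of several of them, among them Cxcl15 (lungkine), Cxcl5 and the alarmin Il33.

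A level below is the log2 signal of a probe relative to the 75th percentile of its own array, so that 0 is that percentile. Of the 72 members, 38 were well above background on all 24 arrays, 29 on some and 5 on none. The 5 were Ccl20, Ccl26, Il9, Il12a and Il13. All 6 genes added by name were above background on all arrays, as were 10 of 19 CC chemokines, 8 of 13 CXC chemokines and 14 of 34 interleukins. A probe was tested where at least 4 arrays of its experiment lay above background, which left 55 members in the GYY4137 experiment and 56 in the NaHS experiment.

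The arrays lay on 4 slides. In the NaHS experiment each group had 2 arrays on each of 2 slides, and 11922 of 27177 genes (43.9%) differed between those slides at an adjusted p under 0.05 in limma with the group in the fit. Among members 19 of 56 did, 15 of them higher on slide 2, such as Il28b (0.20 on slide 2 and -1.59 on slide 1) and Ccl19 (-1.59 on slide 2 and -3.11 on slide 1). In the GYY4137 experiment the 85% O2 arrays were all on one slide and the 21% O2 arrays on another, so oxygen and slide cannot be told apart there. All 24 h arrays of the NaHS experiment also stood in the second row of their slide and all 6 h arrays in the first, so time and row cannot be told apart. Type II markers were present: 7 to 10 of 10 lay above background on each array, with Sftpc, Sftpb, Abca3, Lamp3 and Napsa on all 24, while Cxcl15, a member as well as a marker, was above background on 9 of the 24. Macrophage markers were present too (7 to 9 of 9 above background on each array). So were fibroblast (6 to 7 of 7), neutrophil (4 to 7 of 7), lymphocyte (5 to 7 of 8) and endothelial markers (4 to 6 of 6). Which of these cell types a member's signal came from was not tested. In such bulk RNA fewer cells of a type and less RNA per cell cannot be told apart.

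Sequence upstream of members was taken from RefSeq promoter windows (GRCm38.p6), which matched 50 of the 72 members by symbol in 57 windows. In the 250 bases before the start, a form of the NF-kB motif (GGG, any 3 bases, TTCC) occurred on either strand in 11 of 57 member windows (19.3%) and in 4.65% of all 32851 windows. The genes were Ccl1, Ccl9, Ccl20, Csf1, Cxcl1, Cxcl2, Cxcl3, Cxcl10, Il6, Il9 and Il16. The AP-1 letters TGANTCA occurred in 9 member windows (15.8%, against 6.75% of all), and the interferon element letters (GAAA, any 2 bases, GAAA) in 5 (8.77%, against 2.98%). The STAT letters TTCNNNGAA were found in 3 member windows (5.26%, against 7.02% of all), and TGACNNNGC, a form of the antioxidant element, in 4 (7.02%, against 10.2%). The windows below belong to the members that passed the test between oxygen levels and had a window, without Il22, which has a near-identical copy in the genome of some mouse strains. They are written 5' to 3' on the gene's strand and end at the annotated start, with matches to any of these motifs in capitals.
Ccl17, chr8:94810203-94810452, plus strand: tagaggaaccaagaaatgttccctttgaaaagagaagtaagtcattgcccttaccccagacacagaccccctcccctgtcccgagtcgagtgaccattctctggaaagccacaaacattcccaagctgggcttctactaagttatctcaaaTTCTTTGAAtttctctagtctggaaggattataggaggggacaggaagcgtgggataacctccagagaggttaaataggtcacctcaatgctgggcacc
Csf1, chr3:107760470-107760719, minus strand: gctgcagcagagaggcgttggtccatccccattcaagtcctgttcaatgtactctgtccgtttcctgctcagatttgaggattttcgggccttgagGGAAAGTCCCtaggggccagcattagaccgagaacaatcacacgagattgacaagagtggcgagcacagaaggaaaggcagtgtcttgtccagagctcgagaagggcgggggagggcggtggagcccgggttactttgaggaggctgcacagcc
Il19, chr1:130940116-130940365, minus strand: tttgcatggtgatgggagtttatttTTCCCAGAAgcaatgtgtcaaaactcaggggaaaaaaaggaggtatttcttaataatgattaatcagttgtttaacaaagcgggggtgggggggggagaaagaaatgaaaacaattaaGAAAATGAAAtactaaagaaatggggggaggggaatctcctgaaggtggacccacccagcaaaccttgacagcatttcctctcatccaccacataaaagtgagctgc
Il33, chr19:29924863-29925112, plus strand: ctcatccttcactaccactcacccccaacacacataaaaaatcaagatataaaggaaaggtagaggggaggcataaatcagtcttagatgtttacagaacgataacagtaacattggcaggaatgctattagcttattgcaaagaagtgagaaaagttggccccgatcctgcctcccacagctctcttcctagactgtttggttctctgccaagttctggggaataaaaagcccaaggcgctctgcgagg
Il33, chr19:29945540-29945789, plus strand: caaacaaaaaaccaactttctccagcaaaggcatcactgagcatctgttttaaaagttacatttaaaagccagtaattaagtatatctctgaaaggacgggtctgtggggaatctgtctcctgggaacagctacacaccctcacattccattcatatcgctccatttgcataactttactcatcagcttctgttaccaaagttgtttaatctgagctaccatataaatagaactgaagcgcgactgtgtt
Csf1 held 1 NF-kB match (GGAAAGTCCC, the reverse complement form), beginning 154 bases before its start. Ccl17 held 1 STAT match (TTCTTTGAA) at 99 bases, and Il19 had a STAT match (TTCCCAGAA) at 225 bases and an interferon element match (GAAAATGAAA) nearer to the start. Neither Il33 window held any of the motifs. A match of these letters is a description of the window and not a bound site.

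The first comparison asked which members differed between 85% and 21% O2 in GYY4137-treated cells. In 85% O2, 6 members rose (Csf1, Csf3, Il7, Il15, Il19 and Il22) and 2 fell (Il33 and Ccl17), at adjusted p under 0.05 in limma over all genes. The share, 8 of 55 members, sits beside 16.8% of all 27945 genes (10.2% higher, 6.61% lower), so members passed the test about as often as genes in general. Their median log2 difference was 0.23, with 40 of 55 above 0, against a median of 0.04 over all genes, of which 54.1% were above 0. The arrays of the groups did not overlap for 10 members, the same 8 with Ccl19 and Il3, where 23.7% of all genes did not overlap. At an unadjusted p under 0.05 there were 14 members, beside 34.7% of all genes.

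Among the colony-stimulating factors, Csf1 drives the survival and growth of macrophages. It stood at 6.16, 6.18, 6.11 and 6.14 in the 85% O2 arrays, against 5.41, 5.34, 5.58 and 5.26 in the 21% O2 arrays. Every 85% O2 array was above every 21% O2 array, and the 85% O2 values spanned the narrower range. The log2 difference was 0.75 ± 0.11 (SE), a 1.68-fold higher signal, with an adjusted p of 0.00435. All 3 Csf1 probes passed the test, the other two with differences of 0.39 and 0.47, and the chosen probe lies at chr3:107544333-107544392 (mm9).

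Csf3, which drives neutrophil production, had levels of -3.06, -2.39, -2.0 and -0.29 in 85% O2 and of -3.89, -4.84, -4.29 and -3.87 in 21% O2. The groups did not overlap, although the 85% O2 arrays spread widely, with replicate 4 highest. It rose by 2.29 ± 0.54 on the log2 scale (4.89-fold, adjusted p = 0.026). The call ended without 21% O2 replicate 2 (adjusted p = 0.0717), 21% O2 replicate 3 (0.0581) or 85% O2 replicate 3 (0.0672), and with normexp background correction the difference was 1.46. Csf2, which supports alveolar macrophages, did not pass the test: its means were 1.30 ± 0.69 in 85% O2 and 0.53 ± 0.80 in 21% O2 (SD, n = 4 each, adjusted p = 0.264 in limma).

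Il7 and Il15 act through receptors that share the common gamma chain and support lymphocytes. Il7 had levels of -3.51, -3.53, -3.75 and -3.37 in 85% O2, against -5.86, -6.45, -5.79 and -4.93 in 21% O2. It was above background on 4 of 4 arrays in 85% O2 but on 2 of 4 in 21% O2, so these are low signals. The log2 difference was 2.22 ± 0.29 (adjusted p = 0.00343), and 0.73 with normexp background correction, which raises dim signals to a common floor. Il15 had levels of -0.96, -0.95, -1.13 and -0.78 in 85% O2, against -1.97, -2.15, -3.26 and -1.80 in 21% O2. That is a rise of 1.34 ± 0.30 (2.53-fold, adjusted p = 0.0214), and it ended without 21% O2 replicate 2 (adjusted p = 0.0501), 85% O2 replicate 3 (0.053) or 85% O2 replicate 4 (0.0604). The gene for its presenting chain, Il15ra, fell by 0.46 ± 0.12 (adjusted p = 0.0344).

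Il19 and Il22 belong to the Il10 family, and Il22 acts on epithelial cells. Il19 had levels of -3.52, -3.69, -3.70 and -3.42 in 85% O2 and of -4.23, -4.30, -4.85 and -4.17 in 21% O2, a difference of 0.81 ± 0.17 (adjusted p = 0.0175). It did not pass with normexp background correction (0.32, adjusted p = 0.0645), and Il19 also differed by 1.14 between the 2 slides of the NaHS experiment, which is more than its oxygen difference. Il22 had levels of -2.82, -2.86, -3.0 and -2.96 in 85% O2, against -3.25, -4.09, -4.05 and -4.18 in 21% O2. The difference of 0.98 ± 0.21 passed the test (adjusted p = 0.0175) and was 0.53 with normexp, and without 21% O2 replicate 2 it did not pass (adjusted p = 0.0518). Signal of Il22 is uncertain in origin, since the near-identical copy could bind the same probe, and Ccl19 has such copies as well. Il24, of the same family, differed by -0.09 ± 0.25 and did not pass, while its other, dimmer probe did (1.68, adjusted p = 0.00795).

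Il33 and Ccl17 moved the other way. Il33, an alarmin released by epithelial cells, had levels of -0.44, -0.58, -0.45 and -0.94 in 85% O2, against 0.07, 0.41, 1.27 and 0.70 in 21% O2. It fell by 1.22 ± 0.25 on the log2 scale (adjusted p = 0.0169), with no overlap between groups, and the call held in all 16 alternatives. In the NaHS experiment the group means of Il33 were close to one another, at -0.05 ± 0.26 with NaHS at 24 h, 0.16 ± 0.18 with vehicle at 24 h, 0.05 ± 0.44 with NaHS at 6 h and -0.02 ± 0.48 with vehicle at 6 h. Ccl17, which draws T cells through Ccr4, had levels of -2.04, -1.81, -0.76 and -1.22 in 85% O2, against -0.64, -0.66, 0.36 and -0.03 in 21% O2. Its lowest 21% O2 array lay only just above its highest 85% O2 array. The fall of 1.21 ± 0.33 (adjusted p = 0.0415) did not pass without a filter on dim probes, nor when any of 6 of the 8 arrays was left out, all but 21% O2 replicate 1 and 85% O2 replicate 3 (adjusted p 0.0615 to 0.0924).

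**Figure D1:**
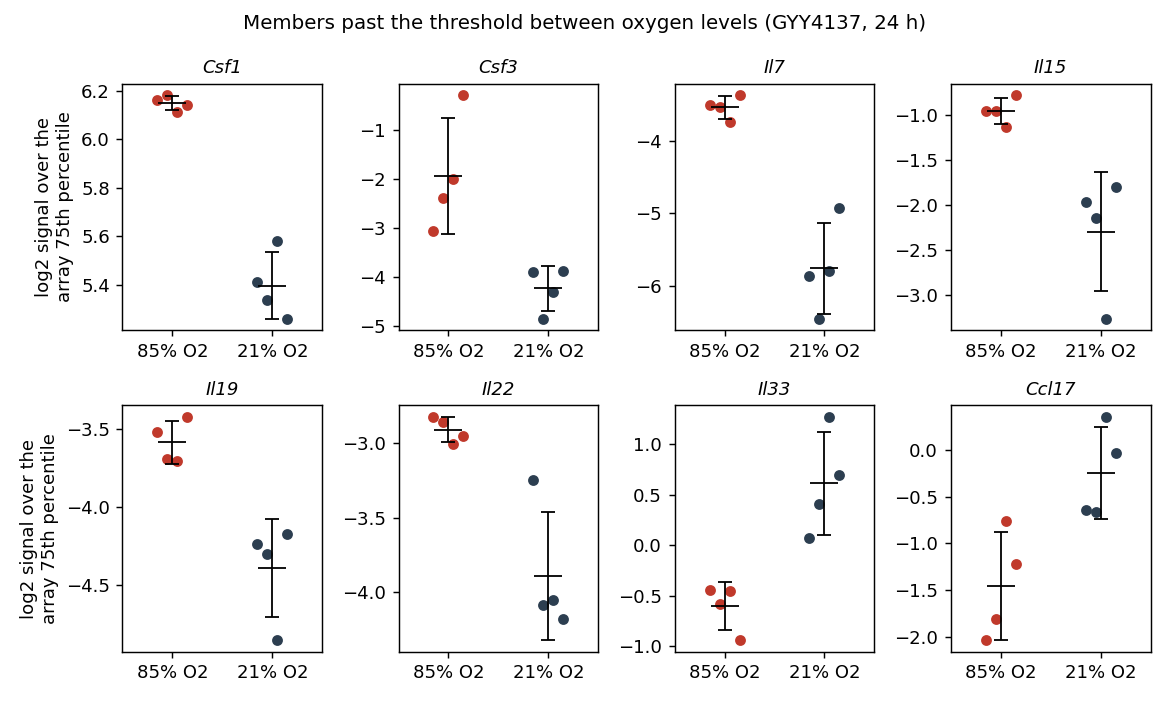
Log2 signal over the array's 75th percentile (vertical axis, a different range in each panel) of the 8 members that passed the test, in GYY4137-treated cells in 85% O2 (left, red) and 21% O2 (right, dark). Points are the 4 arrays of a group and bars the mean ± SD: 6 members sit higher and 2 lower in 85% O2, and no pair of groups overlaps.

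Members outside the threshold varied with single arrays. Cxcl5 averaged -1.58 ± 1.12 in 85% O2 and -2.91 ± 0.74 in 21% O2 (SD, n = 4 each), a difference of 1.33 ± 0.57 that did not pass (adjusted p = 0.139 in limma). Il16, a T cell attractant, averaged -2.39 ± 0.51 in 85% O2 and -0.94 ± 1.27 in 21% O2 (adjusted p = 0.12 in limma), where 21% O2 replicate 3 stood at 0.85. That array also held the highest Ccl2 (6.54, against 3.88 to 4.31 on the other 21% O2 arrays) and the lowest Il11 (2.86, against 5.88 to 6.18). Among members that passed, it held the group's lowest Il15 and Il19 and highest Il33 and Ccl17, which widens those differences. It also held the group's highest Csf1, which narrows that one. Without this array 6 of the 8 still passed, all but Csf3 and Ccl17. For Ccl19 the difference was -0.44 ± 0.13 (adjusted p = 0.0589), and it passed with quantile normalization (-0.54), median centring (-0.57) and the deposited values (-0.54). For Ccl1, Ccl19, Ccl25, Cxcl11 and Il24 a probe other than the chosen one passed the test, with a difference of the same sign as the chosen probe's for Ccl1 (1.39 and 0.25), Ccl19 (-1.0 and -0.44) and Cxcl11 (-0.59 and -0.37) and of the opposite sign for Ccl25 (1.02 and -0.02) and Il24 (1.68 and -0.09). Differences between probes were not tested. With the replicate number as a block, 9 members passed, the 8 above and Il25, the dim gene of an epithelial type 2 cytokine (1.01). Il25 was above background on 3 arrays in 85% O2 and 1 in 21% O2. The share of all genes past the adjusted threshold in that fit is not given here, so the 9 are no result about the members as a set. The block raised unadjusted counts of all genes too. At an unadjusted p under 0.05 in limma there were 20 members and 10285 of 27945 genes, against 14 members and 9695 genes without it.

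Receptors, decoys and regulators were read from lists chosen with earlier results of these data known. Of 40 interleukin, TNF, LIF and CSF receptor genes tested, 3 rose and 5 fell in 85% O2. Il10ra rose by 1.70 ± 0.30, and Il20rb, a receptor chain used by Il19, Il20 and Il24, by 0.83 ± 0.12. Il1r1, the signalling receptor for Il1, fell by 1.47 ± 0.39 and Il1rap, the accessory chain that Il1 and Il33 receptors share, by 0.84 ± 0.19. The others were Il12rb1, which rose by 0.72, and Il13ra1, Il15ra and Il17rc, which fell. Of 17 chemokine receptor genes only Cxcr5 passed (0.83 ± 0.16). Of 10 decoys and inhibitors 1 passed, Il22ra2, the soluble binding protein of Il22, which rose by 1.43 ± 0.27 beside Il22 itself.

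Of 30 genes of NF-kB subunits, regulators and targets, 1 rose and 2 fell in 85% O2. Rela, which encodes the p65 subunit, rose by 0.36 ± 0.11, while Bcl3 and Nfkbie, both encoding proteins of the IkB family, fell by 1.28 ± 0.16 and 0.85 ± 0.23. Their median over the list was 0.01, against 0.04 for all genes. Of 25 other secreted cytokines, 3 rose (Lta by 1.11, Ebi3 by 0.79 and Gdf15 by 1.01) and 4 fell (Tnfsf18 by 1.42, Tnfsf15 by 1.35, Tnfsf11 by 1.22 and Ccl27a by 0.86). These counts lie beside the same 16.8% of all genes.

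Few markers of cell types passed the test between the oxygen groups, and the counts that follow lie beside 16.8% of all genes. A summed level is the sum of 2^level over all markers of a list on the array, so the brightest markers weigh most. Of 8 type II markers tested 1 fell, Lamp3 by 1.06 ± 0.14. The summed level of the type II list was 29.8 to 33.3 per array in 85% O2, against 38.0 to 53.0 in 21% O2. Of 9 macrophage markers none passed the test, and their summed level was 26.0 to 31.9 in 85% O2 and 24.4 to 28.2 in 21% O2. Among 7 fibroblast markers Thy1 fell by 1.06 (summed level 359.9 to 596.1 in 85% O2 and 596.4 to 664.2 in 21% O2). Among 7 neutrophil markers Mpo fell by 0.65 (29.3 to 34.2 against 31.4 to 41.7), among 5 endothelial markers Tek rose by 1.16 (4.15 to 6.54 against 6.31 to 8.0), and none of 7 lymphocyte markers passed (5.09 to 5.81 against 5.03 to 6.01). A sum need not follow its list. Differences were above 0 for 4 of 5 endothelial and 4 of 7 neutrophil markers tested (medians 0.69 and 0.25). They were above 0 for 3 of 8 type II, 7 of 9 macrophage, 0 of 7 fibroblast and 4 of 7 lymphocyte markers. The part of these marker shifts in the members' differences was not tested.

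The second question was whether NaHS changed the members. No member passed the test at 24 h or at 6 h, and no gene of the 27177 tested did (0% of genes), nor did any in the difference between the effects at 24 h and 6 h, in limma under any alternative run. At an unadjusted p under 0.05 there were 615 genes (2.26%) and 0 members at 24 h, 161 genes (0.592%) and 0 members at 6 h, and 306 genes (1.13%) and 0 members for the difference of effects. With the replicate number as a block those counts were 2599 genes and 8 members at 24 h and 560 genes and 1 member at 6 h, still with 0 past the adjusted threshold. For none of the 56 members were the NaHS and vehicle arrays apart without overlap, at either time, where 1.8% of all genes were at 24 h and 0.673% at 6 h.

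The 95% intervals of the main fit, which had no slide or replicate block, show how large a change that fit could have missed. Changes of more than 2-fold in either direction fell outside the interval for 16 of 56 members at 24 h and for 20 of 56 at 6 h, against 61.2% and 63.9% of all genes. With the replicate number as a block they were 29 of 56 members at 24 h and 29 at 6 h, against 76.5% and 80.3% of all genes. Csf1 was bounded tightly. Its levels with NaHS at 24 h were 6.02, 5.67, 6.03 and 5.93, against 5.83, 6.19, 5.98 and 6.16 with vehicle at 24 h. At 6 h they were 6.05, 6.05, 5.61 and 5.84 with NaHS and 6.04, 5.70, 5.43 and 5.92 with vehicle, so the groups overlapped throughout. Cxcl11, a ligand of Cxcr3, ranged only from 7.46 to 7.97 over the 16 arrays. The transcript named for its probe was not matched in RefSeq. Cxcl12, the Cxcr4 ligand, averaged 5.67 ± 0.07 with NaHS and 5.99 ± 0.32 with vehicle at 24 h, and spread more at 6 h (5.84 ± 0.32 with NaHS and 5.88 ± 0.59 with vehicle; SD, n = 4 each).

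Other members were too variable to bound in the main fit, where spread between slides and replicate numbers stays in the interval. Csf3 had levels of -1.40, -2.18, -1.25 and -1.58 with NaHS at 24 h, against -1.89, -4.71, -1.51 and -2.64 with vehicle at 24 h. Its log2 difference was 1.08 with a 95% interval from -0.16 to 2.33, and vehicle replicate 2 lay far below the rest. Tnf, a proinflammatory cytokine, had -1.74, -1.86, -1.95 and -1.97 with NaHS at 24 h and -1.88, -3.48, -2.01 and -2.12 with vehicle at 24 h, where the same vehicle array was low. That array was also the lowest of its group for Cxcl1 (-4.47), Cxcl5 (-4.00), Cxcl10 (0.83), Il23a (-4.54) and Csf2 (0.86). For Il7 the interval at 6 h was -3.90 to 0.56, where vehicle replicate 2 stood at 1.46 and the other 3 vehicle arrays between -4.95 and -4.05. The groups of a gene share one estimate of the spread, so its interval at 24 h was as wide (-1.91 to 2.55).

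**Figure D2:**
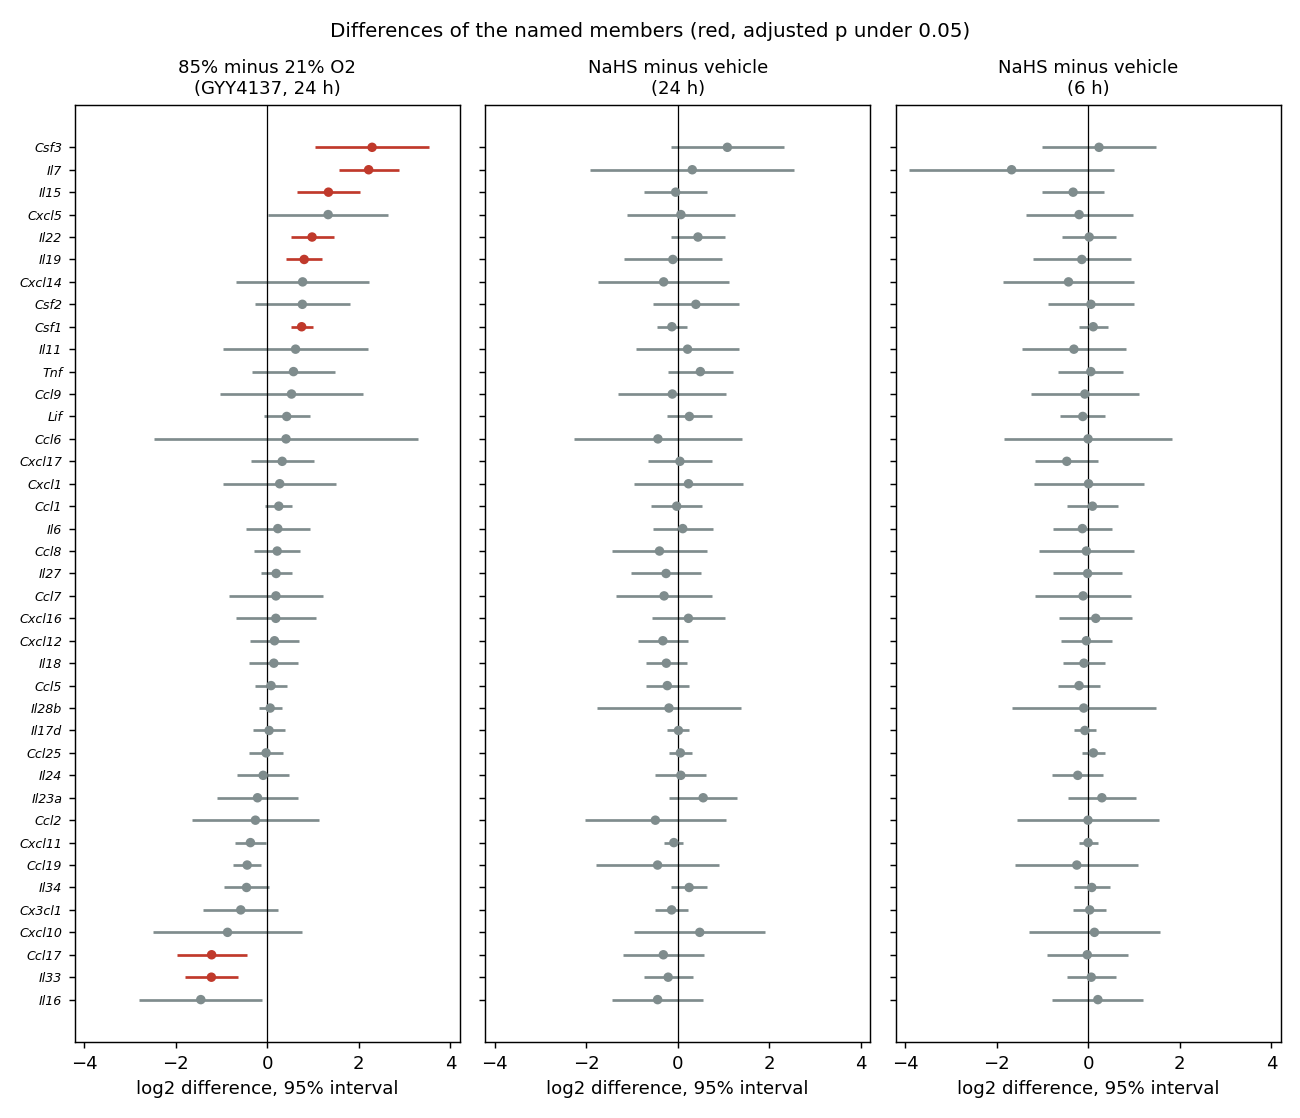
Log2 difference (horizontal axis) with its 95% interval for the 39 members above background on all 24 arrays or past the threshold, for 85% minus 21% O2 (left), NaHS minus vehicle at 24 h (middle) and NaHS minus vehicle at 6 h (right). Red marks an adjusted p under 0.05: 8 members in the oxygen panel and 0 in the NaHS panels.

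The last comparison was of time in culture. At 24 h, Cxcl5 was lower than at 6 h in vehicle-treated cells, the 1 member of 56 past the threshold, beside 397 of 27177 genes (1.46%; 0.754% higher and 0.706% lower). Its levels were -3.13, -4.00, -2.62 and -2.36 with vehicle at 24 h, against 0.10, -1.48, -1.34 and 1.10 with vehicle at 6 h. The groups did not overlap, and the log2 difference was -2.62 ± 0.54 (6.16-fold lower, adjusted p = 0.0347). The direction was the same in all 28 alternatives (-2.99 to -1.73), but the call ended in 17 of them, with adjusted p up to 0.53, so it lies near the threshold. It ended without vehicle 6 h replicate 1 (adjusted p = 0.107) or 4 (0.0766), any of the 4 vehicle 24 h replicates (0.0535 to 0.0995), NaHS 6 h replicate 1 (0.051) or 2 (0.0515), or NaHS 24 h replicate 1 (0.0551) or 4 (0.0506), since all 4 groups share one estimate of the spread. With NaHS the levels were -3.04, -2.98, -3.05 and -2.77 at 24 h, against 0.01, 0.03, -1.36 and -1.09 at 6 h. That difference, -2.35 ± 0.54, did not pass over all genes (adjusted p = 0.164), and 11 genes (0.0405%; 0.0331% higher and 0.00736% lower) and no member did. At an unadjusted p under 0.05 there were 6 members with NaHS, beside 8.7% of genes, and 3 members were without overlap between times (Cxcl5, Cxcl1 and Tnf), beside 6.79% of genes. The vehicle and NaHS contrasts come from different arrays, and Cxcl5 was below its 6 h values on all 8 of the 24 h arrays.

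Other chemokines had lower means at 24 h without passing the test. Cxcl1 averaged -3.43 ± 0.73 with vehicle at 24 h and -2.18 ± 1.36 at 6 h (SD, n = 4 each, adjusted p = 0.35 in limma), and with NaHS -3.20 ± 0.13 at 24 h and -2.17 ± 0.58 at 6 h. Cxcl17, a mucosal chemokine, averaged -1.35 ± 0.38 with vehicle at 24 h and -0.11 ± 0.67 at 6 h, a difference of -1.24 ± 0.32 (adjusted p = 0.0768 in limma; SD, n = 4 each). Cxcl15 was above background on 0 of 4 vehicle arrays at 24 h and 2 of 4 at 6 h. Its difference did not pass (adjusted p = 0.133 in limma, measured means -7.03 at 24 h and -5.11 at 6 h). The 6 h mean of Cxcl15 stood 1.78-fold above a floor for the 24 h arrays, with no allowance for spread. That floor averages, per 24 h array, the lowest signal called above background or the probe's own where higher.

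Cx3cl1 and Ccl17, neighbours on chromosome 8, were higher at 24 h without passing the test. Cx3cl1, a membrane-bound ligand of monocyte receptor Cx3cr1, had 2.74, 2.98, 2.79 and 2.66 with vehicle at 24 h, against 2.10, 2.02, 1.92 and 2.48 at 6 h (difference 0.66 ± 0.17, adjusted p = 0.0746). Ccl17 had 0.16, 0.32, 0.68 and 0.33 with vehicle at 24 h, against -0.74, -0.21, -1.22 and -1.40 at 6 h (1.26 ± 0.41, adjusted p = 0.162). Both were without overlap between times, as were 6 of 56 members in all, where 8.14% of genes were. At an unadjusted p under 0.05 there were 10 members, beside 13% of genes. Replicate numbers were taken to pair the arrays, from the correlation of their deviations. With that number as a block 4 members passed in vehicle: Cxcl5 (adjusted p = 0.0256 in limma), Cxcl17 (0.0302), Il24 (0.0264) and Cx3cl1 (0.0389), 3 of them lower at 24 h and Cx3cl1 higher. In the same fit 1032 of 27177 genes passed.

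Beside these shifts, the summed macrophage marker level was 24.9 to 31.2 per array with vehicle at 24 h and 17.4 to 19.4 at 6 h, with NaHS 17.9 to 29.6 at 24 h and 18.2 to 21.4 at 6 h. Of 9 macrophage markers none passed in vehicle and 1 rose with NaHS, beside 1.46% and 0.0405% of all genes. Their differences were above 0 for 9 in vehicle and 8 with NaHS. The summed type II marker level was 38.4 to 45.6 with vehicle at 24 h and 46.3 to 70.1 at 6 h, with NaHS 42.2 to 52.1 at 24 h and 43.8 to 112.7 at 6 h, and Sftpa1, a surfactant protein gene, fell by 3.15 ± 0.52 in vehicle. The summed fibroblast marker level was 675.6 to 864.3 with vehicle at 24 h and 276.3 to 675.2 at 6 h, with NaHS 471.7 to 704.4 at 24 h and 457.7 to 671.4 at 6 h. Of the 7 fibroblast markers Thy1 rose by 1.15 ± 0.23. The ranges of the neutrophil, lymphocyte and endothelial sums overlapped between times in vehicle. Of 39 receptor genes in vehicle, Csf2ra, the Csf2 receptor alpha chain, rose by 0.74 ± 0.12 and Il1rl1, the receptor for Il33, fell by 0.79 ± 0.18. None of the 16 chemokine receptors, 10 decoys, 30 NF-kB genes or 25 other cytokines passed in that contrast. The counts in vehicle lie beside the same 1.46% of all genes. The part of cell type markers in the members' differences was not tested.

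**Figure D3:**
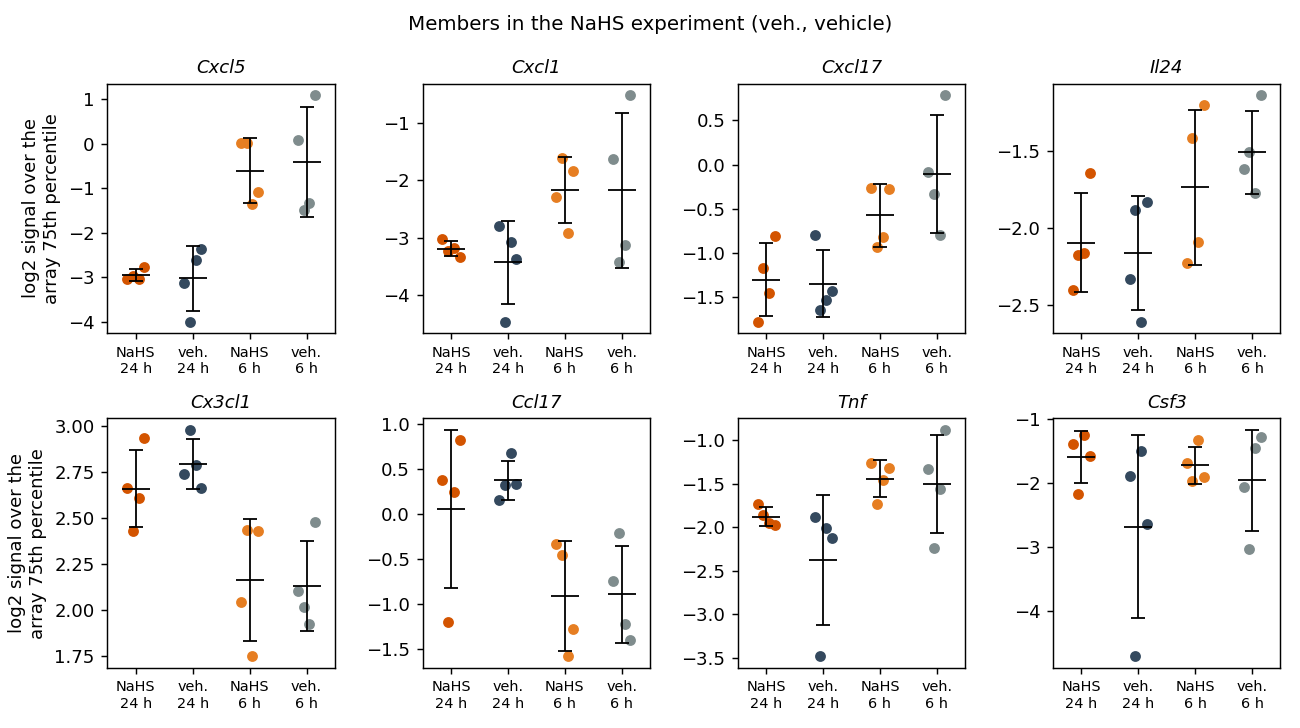
Log2 signal over the array's 75th percentile (vertical axis, a different range in each panel) of 8 members in the 4 groups of the NaHS experiment, NaHS at 24 h, vehicle at 24 h, NaHS at 6 h and vehicle at 6 h (left to right). Points are the 4 arrays of a group and bars the mean ± SD: Cxcl5 lies lower at 24 h than at 6 h with either treatment, and NaHS and vehicle arrays overlap in every panel.

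Many members lie in gene clusters, and neighbours were compared array by array. In all, 6 pairs of members above background on all 24 arrays lay within 100000 bases of each other by probe position, and each was correlated over the 8 arrays of each slide of the NaHS experiment, 12 relations in all. The 8 arrays of a slide are 2 replicate numbers in each of 4 groups, and same-numbered arrays deviated together, so they are not independent samples and the correlations are given as a description with no p. Each pair was also correlated over all 16 arrays after group means and replicate-number means had been taken out, a step added after the data were seen.

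Ccl2 and Ccl7, monocyte attractants that act through Ccr2 and whose probes lie 10006 bases apart on chromosome 11, followed each other on both slides. Pearson's r was 0.989 on slide 1 and 0.948 on slide 2 (Spearman's rho 0.976 and 0.929). Without the 2 arrays farthest from the median Ccl2 level, r was 0.938 on slide 1 and 0.856 on slide 2. With group and number means taken out it was 0.976 over the 16 arrays. The Ccl2 level moved over 3.48 to 6.56 without separating treatments or times.

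Among the other pairs, Ccl6 and Ccl9, 13774 bases apart, had r = 0.979 on slide 1 (rho = 0.905) and 0.00339 on slide 2 (rho = 0.19), and r = 0.867 with group and number means taken out. For Ccl6 the highest levels were 4.07 with NaHS and 3.97 with vehicle, both 24 h replicate 3 on slide 1, whose Ccl9 levels were 0.79 and 0.77. Cx3cl1 and Ccl17, 29585 bases apart, had r = 0.953 on slide 1 (rho = 0.905) and 0.568 on slide 2 (rho = 0.548), where 0.00638 was left without the 2 farthest arrays. Both of these genes had higher means at 24 h than at 6 h, and with group and number means taken out their r was 0.403. Cxcl10 and Cxcl11, both Cxcr3 ligands, had r of opposite sign on the slides (-0.828 and 0.574), and r = -0.11 with those means taken out. For Ccl5 with Ccl9, r was 0.692 on slide 1, 0.7 on slide 2 and 0.703 with those means taken out, and for Ccl8 with Ccl1 it was -0.44, 0.469 and -0.08.

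**Figure D4:**
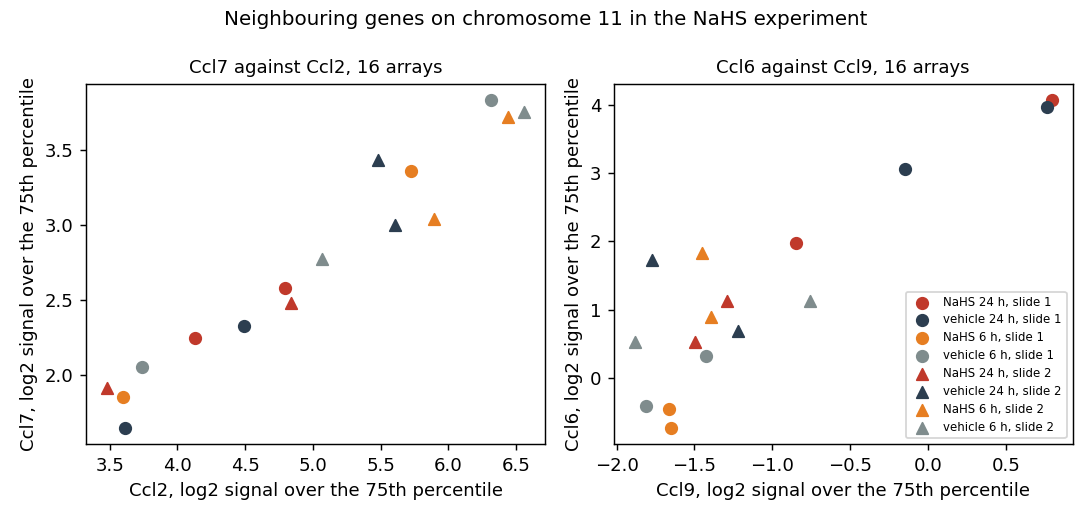
Log2 signal over the array's 75th percentile of Ccl7 against Ccl2 (left) and of Ccl6 against Ccl9 (right), one point per array of the NaHS experiment. Circles are slide 1 and triangles slide 2, and colours are the 4 groups: Ccl7 follows Ccl2 on both slides, while Ccl6 follows Ccl9 on slide 1, with r near 0 on slide 2.

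The remaining members above background on all arrays held to narrower or less ordered ranges. Il6 averaged 3.16 ± 0.19 in 85% O2, 2.93 ± 0.66 in 21% O2, 3.36 ± 0.25 with NaHS at 24 h, 3.25 ± 0.17 with vehicle at 24 h, 2.89 ± 0.59 with NaHS at 6 h and 3.01 ± 0.60 with vehicle at 6 h (SD, n = 4 each), so no group stood apart. Cxcl10, an interferon-induced Cxcr3 ligand, averaged -0.07 ± 1.06 in 85% O2 and 0.79 ± 1.29 in 21% O2, against 3.14 ± 0.97 with NaHS and 2.66 ± 1.30 with vehicle at 24 h in the other experiment. Those experiments were run on different slides and were not tested against each other. Cxcl14, an epithelial chemokine, ranged from 2.95 to 6.06, and within each group but 85% O2 its arrays spread over more than 1.5 on the log2 scale. Il17d and Ccl25 varied least by group, with means between 0.11 and 0.49 for Il17d and between 0.20 and 0.56 for Ccl25.

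Among cytokines of the Il6 family, Il11 averaged 5.89 ± 0.23 in 85% O2, 5.27 ± 1.61 in 21% O2, 5.75 ± 0.19 with NaHS at 24 h, 5.53 ± 0.55 with vehicle at 24 h, 5.46 ± 1.04 with NaHS at 6 h and 5.77 ± 1.0 with vehicle at 6 h. Lif, which signals through gp130 as Il6 and Il11 do, averaged 0.20 ± 0.28 in 85% O2 and -0.23 ± 0.38 in 21% O2, a difference that did not pass (adjusted p = 0.204 in limma; SD, n = 4 each). Il34, the other ligand of the Csf1 receptor, averaged -0.19 ± 0.22 in 85% O2 and 0.26 ± 0.40 in 21% O2 (adjusted p = 0.168 in limma), a difference of opposite sign to that of Csf1 that did not pass. Il18, an Il1 family cytokine that is matured by caspase-1, averaged -0.80 ± 0.22 in 85% O2 and -0.94 ± 0.47 in 21% O2. Cxcl16, a membrane-bound ligand of Cxcr6, averaged 2.52 ± 0.32 with NaHS at 24 h and 2.29 ± 0.46 with vehicle at 24 h, and 2.55 ± 0.58 with NaHS at 6 h and 2.38 ± 0.74 with vehicle at 6 h. In each of these pairs the groups overlapped or differed by less than their spread.

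The other 33 members were above background on 0 to 21 of the 24 arrays. Ccl24, an eosinophil attractant, was detected on 21, Il20 and Il1a on 18 each, Il10 on 16 and Cxcl13 on 16. The Th2 genes Il4 and Il5 were detected on 11 and 7 arrays, and Il13 on none. Detection was rare for Il1b and Il12b, with 2 arrays each, and for Cxcl2, Ccl11 and Ccl22, with 1 each. Members above background per array numbered 50 to 61 in 85% O2, 49 to 56 in 21% O2, 43 to 53 with NaHS at 24 h, 44 to 51 with vehicle at 24 h, 40 to 54 with NaHS at 6 h and 40 to 56 with vehicle at 6 h. In the NaHS experiment that count followed the slide, with 50 to 56 members on slide 2 arrays and 40 to 47 on slide 1 arrays, beside 67.7% to 73.9% of all probes on slide 2 and 54.8% to 57.2% on slide 1.

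**Figure D5:**
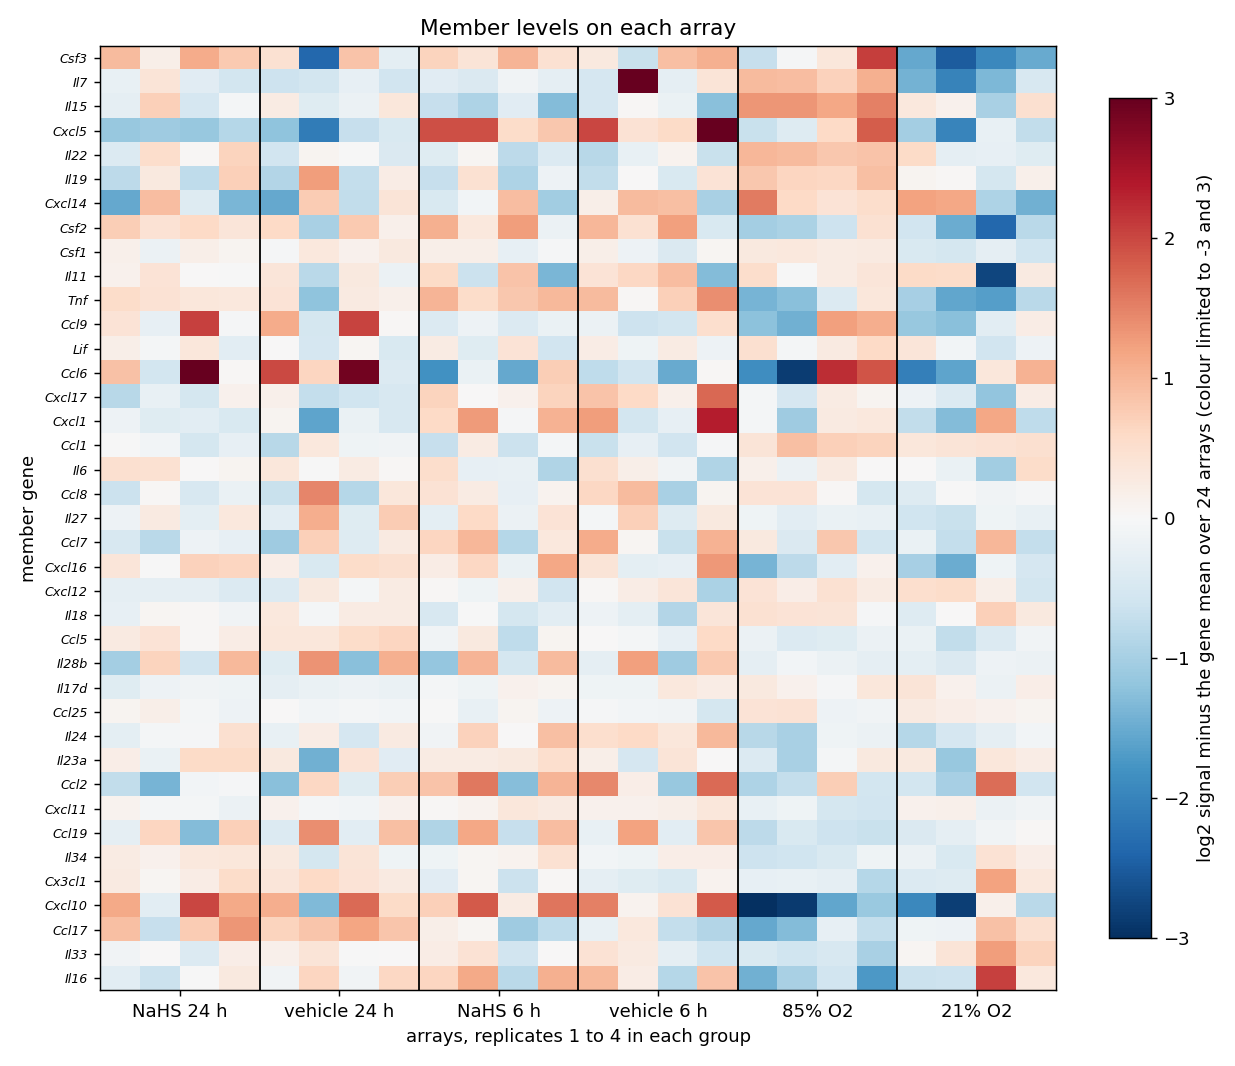
Level of 39 members (rows) on the 24 arrays (columns, replicates 1 to 4 in each group), each as log2 signal minus the gene's mean over all arrays, with colour limited to -3 and 3. Vertical lines part the groups: Csf3, Il7 and Il15 are redder in 85% O2 than in 21% O2. In the NaHS experiment Cxcl5 is bluer at 24 h than at 6 h. Il28b and Ccl19 alternate with replicate number in that experiment, odd replicates being slide 1 and even replicates slide 2.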

How the data were processed

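Per the labels' protocols, total RNA of cultured alveolar type II cells was hybridised to 1-colour Agilent mouse arrays. Per the file headers, the deposited intensity values were made by Agilent Feature Extraction (version 10.7.3.1, also in the submitters' processing notes) and are background-subtracted and not normalized between arrays. The authors' deposited log2 value table, whose steps are not given in the sources used here, served only as an alternative. Of 62976 spots 59305 were not controls, standing for 55681 probes, and 0 were saturated; 54.8% to 77.5% of probes per array were well above background. Number of arrays and low signal limit the precision.

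From the log2 processed signal each array's 75th percentile was subtracted. A probe entered an experiment's fit when well above background on at least 4 arrays. Each experiment was fitted separately with limma 3.58.1 in R 4.3.3 (data.table, version 1.17.8), one mean per group and no slide or replicate block. Benjamini-Hochberg adjustment was over all genes at 0.05. Intervals are 95%. Python 3.11.15 with numpy 2.4.6, pandas 2.3.3, scipy 1.17.1 and matplotlib 3.10.9 prepared tables and figures. The fit was tested on simulated data. Gene names are those of the newer of 2 array design versions, with probe positions on mm9. In all, 68 members' accessions matched RefSeq, 67 with the same symbol (Il28b's accession is Ifnl3 there). Those of Ccl1, Cxcl11, Il12b and Il20 were not matched.

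Members and lists were chosen with earlier results of these data known. Genes named with values are members past the threshold in any comparison or above background on all 24 arrays, and up to 6 passing genes of each list; Il3, Il25, Cxcl15 and members named for how rarely they were detected were named after their values were seen. Same-numbered arrays had a correlation of deviations over 0.1 in 4 of 4 pairs of the GYY4137 experiment (0.188 to 0.296). The same held in 24 of 24 of the NaHS experiment (0.533 to 0.776, where the number also follows the slide). The numbers were therefore taken to pair the arrays. The same-numbered array was the best match in only 3 of the 4 and 18 of the 24, so this pairing is uncertain. Alternatives changed the normalization, background correction, source of values, filter, probe choice, block and samples.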

Additional observations from a re-analysis of the deposited data

Results flagged for a closer look

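In a group of 4 arrays, a value was singled out when its gap to the nearest other array passed the 95% critical value of Dixon's test, as a share of the group's range. This held for 12 of 234 sets of 4 values (39 members in 6 groups), and chance alone marks about 5% of sets. In the GYY4137 experiment these values were Il22 at -3.25 on GYY4137 21% O2 24 h replicate 1 (the other 3 arrays -4.18 to -4.05); Il23a at -4.23 on GYY4137 21% O2 24 h replicate 2 (the other 3 arrays -2.88 to -2.75); Ccl2 at 6.54 on GYY4137 21% O2 24 h replicate 3 (the other 3 arrays 3.88 to 4.31). On the same 21% O2 array stood Il11 at 2.86 on GYY4137 21% O2 24 h replicate 3 (the other 3 arrays 5.88 to 6.18). In 85% O2 they were Cxcl14 at 6.06 on GYY4137 85% O2 24 h replicate 1 (the other 3 arrays 4.91 to 5.09), Cx3cl1 at 1.53 on GYY4137 85% O2 24 h replicate 4 (the other 3 arrays 2.11 to 2.17) and Il18 at -1.13 on GYY4137 85% O2 24 h replicate 4 (the other 3 arrays -0.72 to -0.65). In the NaHS experiment they were Il17d at -0.0458 on NaHS 24 h replicate 1 (the other 3 arrays 0.16 to 0.20), Cxcl12 at 5.56 on NaHS 24 h replicate 4 (the other 3 arrays 5.70 to 5.71) and Tnf at -3.48 on vehicle 24 h replicate 2 (the other 3 arrays -2.12 to -1.88). Arrays at 6 h gave Il7 at 1.46 on vehicle 6 h replicate 2 (the other 3 arrays -4.95 to -4.05) and Ccl25 at -0.14 on vehicle 6 h replicate 4 (the other 3 arrays 0.28 to 0.35). The Il22 value lies in a group that enters a passing comparison; without that array Il22 still passed, as did all 8 members. Il7 passed in no comparison of the NaHS experiment with or without vehicle 6 h replicate 2 (lowest adjusted p over its alternatives 0.321 in limma).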

How the results depend on the processing

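Of the 9 differences of members past the threshold, 155 values were computed under alternatives: 123 stayed on the same side of the threshold, 32 did not pass and 0 reversed. Csf1 (0.62 to 0.82) and Il33 (-1.40 to -1.0) passed in all 16, and Il7 in all 15 that tested it. The filter on all arrays left Il7 out, since it was above background on only 2 of 4 arrays in 21% O2. Its 4 arrays in 85% O2 were enough for the main filter. Of 225 other pairs of a named member and a comparison, 5 passed under some alternative. Between oxygen levels, members lower in 85% O2 numbered 4 with quantile normalization, 5 with median centring, 4 with the deposited values and 1 without a filter, against 2. No share of all genes under those settings is given beside these counts, so they are no result about the members as a set. Leaving out one array gave 3 to 7 higher and 1 to 4 lower members. It gave 1965 (without 85% O2 replicate 3) to 5429 genes, against 4687. The 3 higher members were those without 21% O2 replicate 2.

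For 24 h against 6 h in vehicle, members lower were 0 with quantile normalization, median centring, the deposited values, no filter, within slide 1, within slide 2 and with only the compared groups, 2 with the filter on all arrays, 3 with the replicate block and 2 with slide as a block; 1 was higher with each of the last 3 settings. Genes passing there were 1 with median centring, 658 with normexp, 193 without a filter, 701 with the filter on all arrays, 1032 with the replicate block, 839 with slide as a block, 0 within slide 1, 1 within slide 2 and 0 with only the compared groups. Leaving out one array gave 22 (without vehicle 24 h replicate 1) to 489 genes and 0 to 1 lower members. In NaHS the 11 genes became 2 with quantile normalization or the deposited values, 0 with median centring, 34 with normexp, 6 without a filter, 57 with the filter on all arrays, 55 with the replicate block, 40 with slide as a block, 1 within slide 1, 0 within slide 2 or with only the compared groups, and 0 to 13 without one array. Within a slide or with only the compared groups fewer arrays enter the fit; the cause of the other shifts was not tested. The replicate block changed no other call of a named member.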
